A study of Mus musculus with 2 samples.

Results

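Collagens are the main structural proteins of the extracellular matrix, and each is built from chains whose glycine-rich repeats wind into a triple helix. Chains of types I, III and V assemble into the fibrils that carry tension in soft tissue and are made mostly by fibroblasts, types II and XI form those of cartilage, type IV forms the sheet-like network of basement membranes under endothelium and epithelium, and type VI forms beaded filaments that link cells to the matrix around them. In a tumour this matrix is laid down mainly by fibroblasts and by mural cells, the pericytes and smooth muscle cells that wrap vessels, and in a lymph node it forms the reticular fibres along which lymphocytes move.

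The collagen chain genes were taken as all symbols made of Col, a type number, the letter a and a chain number, with at least 20 unique molecular identifiers (UMIs, 1 per captured transcript) over both libraries. Of 22620 genes, 44 matched the pattern and 32 reached the minimum. They comprised 10 fibrillar genes (Col1a1, Col1a2, Col2a1, Col3a1, Col5a1, Col5a2, Col5a3, Col11a1, Col11a2 and Col27a1), 4 of the basement membrane network (Col4a1, Col4a2, Col4a4 and Col4a5), 4 of beaded filaments (Col6a1, Col6a2, Col6a3 and Col6a5), 2 of other networks (Col8a1 and Col10a1) and the anchoring fibril gene Col7a1. A further 7 were FACITs, collagens that sit on the surface of fibrils (Col9a1, Col9a3, Col12a1, Col14a1, Col16a1, Col20a1 and Col22a1), 2 were multiplexins of basement membrane zones (Col15a1 and Col18a1), 1 was transmembrane (Col23a1) and 1 was Col28a1. The members with fewest UMIs were Col6a5 with 23 and Col2a1 with 27, and the genes just under the minimum were Col13a1 with 14 and Col17a1 with 13. The other 10 genes under it had 11 UMIs or fewer: Col24a1, Col4a6, Col8a2, Col19a1, Col6a6, Col25a1, Col26a1, Col6a4, Col4a3 and Col9a2.

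The cells came from C57BL/6J mice bearing EO771-HEVM3 tumours, with no untreated or tumour-free group. EO771 is a mouse mammary cancer line, and the HEVM3 derivative was obtained by 3 successive selections in mice for tumour cells that had reached the lung by way of high endothelial venules (HEVs), the specialised vessels that admit lymphocytes to lymph nodes. One library was made from primary tumours and 1 from the paired lymph nodes, each pooled from 6 mice with no map from cells to mice. The tissues were digested differently, tumours with collagenases I and III and hyaluronidase and nodes with collagenase P, dispase II and DNase, so that tissue and digestion cannot be told apart.

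The repeat that defines the family can be read in the genes themselves, and 3 stretches are shown because the results below turn on these chains. The longest unbroken run of glycine triplets spanned 339 triplets in Col1a2 (chr6:4504814-4541544, plus strand, GRCm38), 338 in Col1a1 (chr11:94936224-94953042, plus strand) and 344 in Col3a1 (chr1:45311538-45349706, plus strand). It spanned 40 triplets in Col4a1 (chr8:11198423-11312826, minus strand), 66 in Col4a2 (chr8:11312805-11449287, plus strand) and 61 in Col8a1 (chr16:57624258-57754737, minus strand). Capitals mark glycine codons in frame, read 5′ to 3′ along the coding strand from the reference genome. The Col1a2 line is coding exon 17 of 52 (chr6:4519830-4519928), with 11 glycine codons in 33 and no break. The Col4a1 line is exon 25 of 52 (chr8:11226950-11227141), with 19 glycine codons in 64 and an interruption of the repeat inside it. The Col8a1 line opens its longest run, in exon 4 of 4 (chr16:57627994-57628092), with 12 glycine codons in 33.
Col1a2 exon 17: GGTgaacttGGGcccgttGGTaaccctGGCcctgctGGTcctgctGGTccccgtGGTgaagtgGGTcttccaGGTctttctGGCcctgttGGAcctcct
Col4a1 exon 25: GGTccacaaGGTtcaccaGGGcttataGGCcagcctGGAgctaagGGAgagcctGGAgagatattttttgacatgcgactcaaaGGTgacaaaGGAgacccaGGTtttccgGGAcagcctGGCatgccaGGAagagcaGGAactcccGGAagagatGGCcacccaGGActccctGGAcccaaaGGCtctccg
Col8a1 stretch: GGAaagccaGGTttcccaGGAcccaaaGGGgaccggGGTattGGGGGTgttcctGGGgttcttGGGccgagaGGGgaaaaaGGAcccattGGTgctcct

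Col4a1 and Col4a2 lie head to head on chromosome 8, and their annotated 5′ ends overlap by 22 bases. These are in capitals in the 30 bases around the shared start (chr8:11312801-11312830, plus strand, RefSeq on GRCm38.p6), shown because the ratio of the 2 chains is measured below.
Col4a1 and Col4a2 start: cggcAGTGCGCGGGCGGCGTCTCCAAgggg

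Upstream sequence was matched in RefSeq for 25 of the 32 genes. The unmatched genes were Col1a1, Col2a1, Col5a2, Col9a3, Col12a1, Col14a1 and Col22a1. In the 250 bases before the start, the letters CCAAT stood on either strand in 10 of 25 (40%), against 37.5% of 27025 genes with such a window. The letters GGGCGG stood in 15 of 25 (60%), against 35.4%. Col1a2 held a CCAAT 109 bases before its RefSeq start, in capitals in the last 120 bases upstream (chr6:4505498-4505617, plus strand), and the same stretch before Col3a1 (chr1:45311418-45311537, plus strand) held none. The gene model given above starts Col1a2 earlier, at chr6:4504814, so its stretch lies inside that model. For Col3a1 both annotated starts agreed. Of the 7 matched fibrillar genes 3 held a CCAAT, Col1a2, Col5a3 and Col11a1. Both stretches are printed because these chains shared their cell classes below. The matches are descriptions of letters and not of bound sites.
Col1a2 upstream: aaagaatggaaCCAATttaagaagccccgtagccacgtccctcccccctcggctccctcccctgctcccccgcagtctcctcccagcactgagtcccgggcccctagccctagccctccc
Col3a1 upstream: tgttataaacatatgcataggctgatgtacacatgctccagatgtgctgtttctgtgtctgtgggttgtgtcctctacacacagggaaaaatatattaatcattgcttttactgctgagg

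The deposited primary tumour library held 12427 cells with a median of 9161 UMIs, and the lymph node library 11617 cells with a median of 2630. After the limits on detected genes, mitochondrial UMIs and doublets, 8756 and 9689 cells were kept. The libraries shared 47 cell barcodes, of which 31 were kept in both. Clusters were named from markers that held no collagen, and each class below is a "-like" class written without that suffix. The unnamed clusters held 1.66% of kept tumour cells and 0.495% of kept node cells. With 1 library per tissue there was no replicate check, so no test was run. Levels are the UMIs of a gene in a class per 1000000 UMIs of the same class (CPM), with bracketed 95% intervals that are exact for the count and cover counting error only. The counts come from the 3′ ends of transcripts and were not divided by transcript length, so levels of a gene are compared between cells, and ratios of genes are compared between classes without being read as ratios of chains. In both libraries fewer cells of a class and less RNA per cell give the same fall in a share of UMIs.

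Collagen transcripts in the primary tumour were concentrated in 2 small stromal classes. The 104 fibroblasts carried 12760 collagen UMIs at 19070 CPM [18740–19400], which is 23.1% [22.8–23.5] of all collagen UMIs in kept tumour cells. The 109 mural cells carried 13456 at 19910 CPM [19580–20250], or 24.4% [24.04–24.76]. These classes made up 2.43% of the kept tumour cells and held 47.5% [47.1–48.0] of the collagen UMIs. The 6123 cancer cells, 69.9% of kept cells, held 40.1% [39.7–40.5] at a level of 227 CPM [224–230]. The 44 endothelial cells lay between, at 7245 CPM [6942–7557] and 3.91% of the UMIs. All immune classes together held 0.624% at 59.3 CPM. The split between fibroblasts and mural cells depended on the clustering, since other settings left fibroblasts with 7.80% to 55.2% of the UMIs, while the share of fibroblasts and mural cells together stayed between 45.6% and 55.2%.

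**Figure D1:**
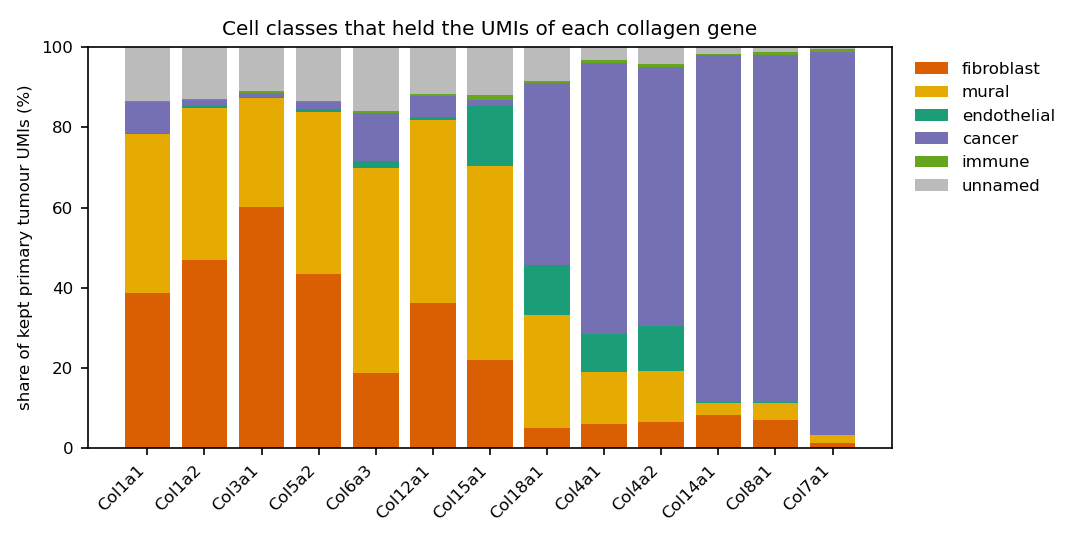
Share of the UMIs of 13 collagen genes in kept primary tumour cells by cell class, in percent of each gene's UMIs, as stacked bars. Fibroblasts and mural cells hold most of the fibrillar Col1a1, Col1a2 and Col3a1, while cancer cells hold 67.5% of Col4a1, 86.6% of Col8a1 and 86.4% of Col14a1.

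In the tumour, the medians over single cells were also higher in the stromal classes than in endothelial cells and higher there than in cancer cells, while fibroblasts and mural cells lay close to each other. The median fibroblast gave 1.63% of its UMIs to collagen genes, with a highest cell at 8.01%, and the median mural cell 1.57%, with a highest cell at 6.28%. The median was 0.657% in tumour endothelial cells, 0.0190% in tumour cancer cells, 0.0217% in node cancer cells and 0.0142% in node endothelial cells, so that in the node the median endothelial cell lay below the median cancer cell. The summed levels of these node classes had the other order, at 261.5 CPM [245.5–278.2] in endothelial and 233.9 CPM [227.3–240.6] in cancer cells. In each of these classes the lowest cell had no collagen UMI, which was the case for 1 fibroblast, 2 mural cells, 1 tumour endothelial cell, 1053 tumour and 24 node cancer cells and 68 node endothelial cells. Stromal cells also used many chains at once. A fibroblast had UMIs of 12 collagen genes and a mural cell of 14 (medians), against 4 in tumour endothelial cells and 2 in tumour cancer cells. UMIs of Col1a1, Col1a2 and Col3a1 were found together in 83 of 104 fibroblasts and 84 of 109 mural cells, in 4 of 44 endothelial cells and in 1 of 6123 cancer cells. When every cell was thinned to 1000 UMIs, 96.6% of fibroblasts, 97.3% of mural cells and 19.7% of tumour cancer cells had a collagen UMI. The share was 4.11% in tumour T cells, lymphocytes that serve here as the measure of free RNA. Median depths before thinning were 5108 UMIs in fibroblasts, 14062 in cancer cells and 1572 in T cells, and the unthinned shares were 99.04%, 82.8% and 8.30%.

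**Figure D2:**
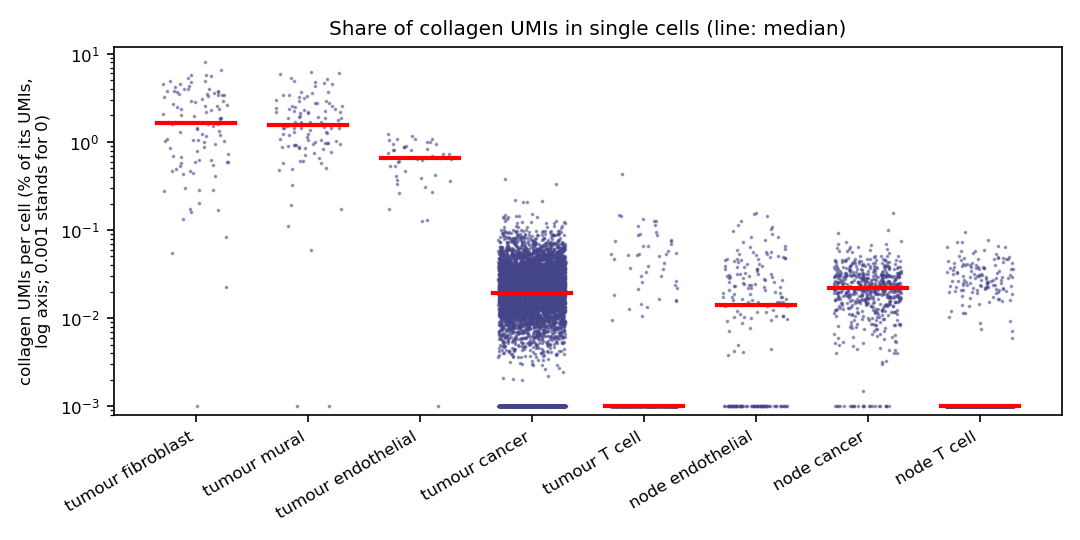
Share of each cell's UMIs that came from the 32 collagen genes, in percent on a log axis, by class and library, with cells without a collagen UMI drawn at 0.001 and the median as a red line. The medians of tumour fibroblasts (1.63%) and mural cells (1.57%) lie far above those of tumour cancer cells (0.0190%) and node cancer cells (0.0217%).

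Among 28 genes with at least 20 UMIs in the kept tumour classes, the class with the highest level was mural for 10 (35.7%, against 8.32% of 13274 genes) and fibroblast for 9 (32.1%, against 11%). It was endothelial for 4 (13.7% of all genes) and cancer for 1, Col9a1 (17.8% of all genes). An immune class was highest for 4 (49.2% of all genes): dendritic cells for Col11a2 and Col27a1, macrophages for Col20a1 and T cells for Col9a3. Of these immune genes Col27a1 was measured above T cells, as given below, and the others rested on 1 to 4 UMIs in that class. Col22a1, assigned to endothelial cells, rested on 1 UMI there and had 99 in cancer cells. The members below 20 UMIs there were Col2a1, Col4a4, Col4a5 and Col6a5. At a coarser clustering (Leiden resolution 0.5), Col1a2, Col3a1, Col5a2, Col8a1, Col11a1 and Col16a1, counted here under fibroblasts, were higher in mural cells.

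**Figure D3:**
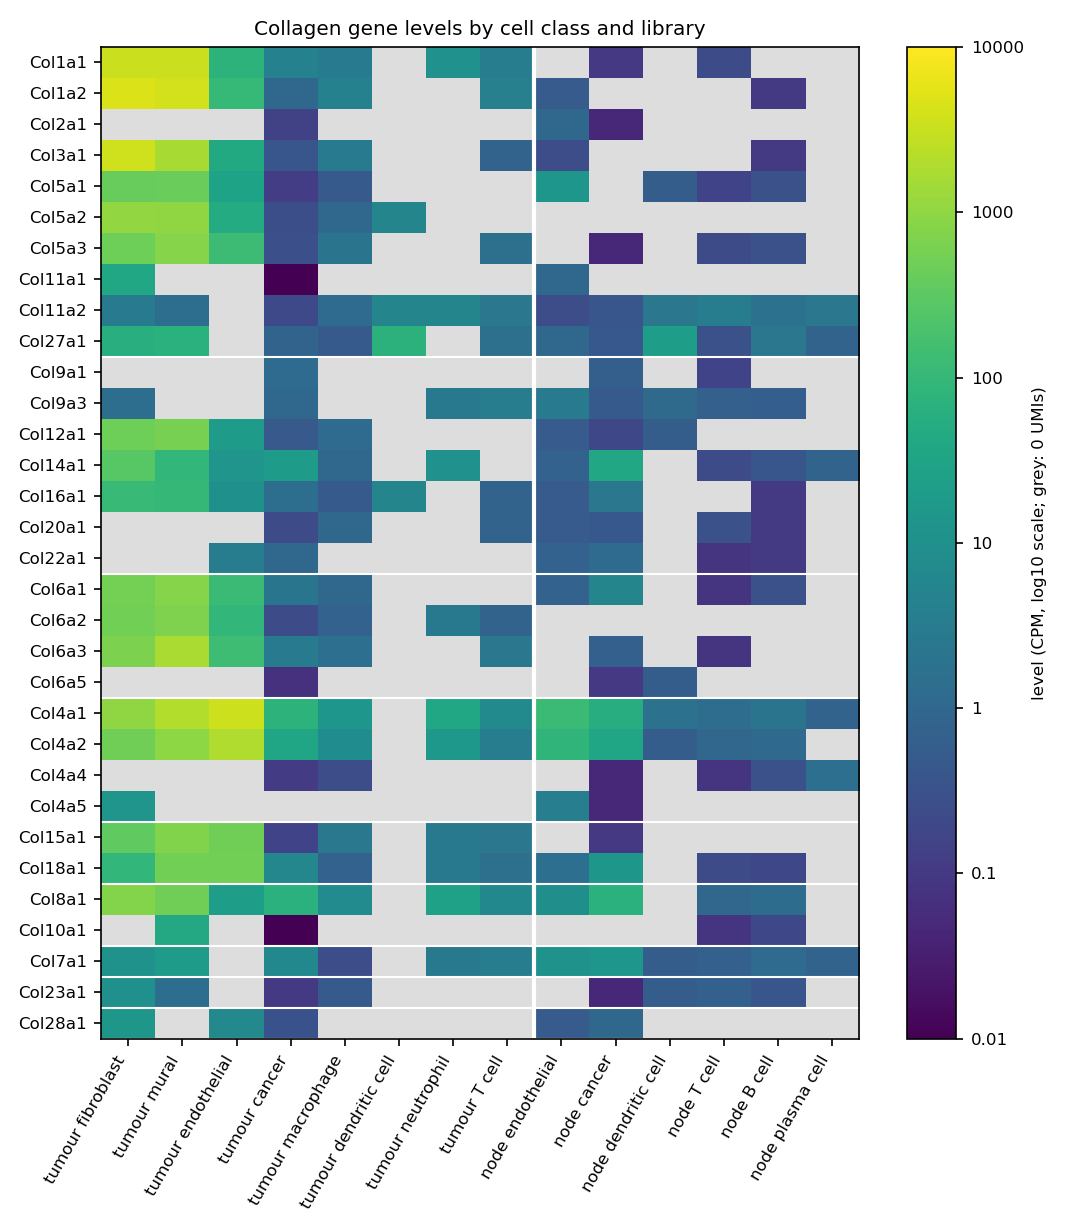
Level of each of the 32 collagen genes (rows, grouped by type) in 8 classes of the primary tumour and 6 of the lymph node (columns), as CPM on a log10 colour scale, with grey for 0 UMIs. Fibrillar genes are high in tumour fibroblasts and mural cells, type IV genes in tumour endothelial cells, and the node columns hold few high cells.

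Type I collagen, the main protein of fibrils in most tissues, had most of its transcripts in the stroma. Col1a1, its alpha 1 chain, stood at 3258 CPM [3122–3397] in fibroblasts and 3304 CPM [3168–3444] in mural cells, intervals that overlap. At the coarser clustering its log2 ratio of mural cells over fibroblasts was 1.25 [1.14 to 1.38]. Col1a1 stood at 77.3 CPM [49.0–116] in endothelial cells, 4.42 CPM [4.02–4.86] in cancer cells and 3.22 CPM [0.877–8.24] in T cells, so that the cancer cell level lay within the T cell interval. Col1a2, the alpha 2 chain, stood at 4812 CPM [4647–4981] in fibroblasts, 3866 CPM [3720–4018] in mural cells, 104 CPM [70.8–148] in endothelial cells, 1.08 CPM [0.884–1.31] in cancer cells and 4.03 CPM [1.31–9.39] in T cells. Fibroblasts and mural cells held 38.6% and 39.6% of the Col1a1 UMIs of kept tumour cells, and 46.8% and 38.0% of those of Col1a2. Of the Col1a1 UMIs, 13.4% lay in unnamed cells and 7.62% in cancer cells. In cells thinned to 1000 UMIs, Col1a1 was detected in 77.3% of fibroblasts, 75.1% of mural cells, 0.433% of cancer cells and 0.463% of T cells.

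The Col1a1 UMIs of cancer cells did not keep the stromal ratio to Col1a2. There were 0.677 Col1a1 UMIs per Col1a2 UMI in fibroblasts [0.641–0.715], 0.855 in mural cells [0.807–0.905] and 0.864 in immune cells [0.442–1.67], but 4.10 in cancer cells [3.30–5.12]. Within the cancer cells, 263 of the 430 Col1a1 UMIs lay in the cluster led by Cyp1a1 and Wnt6, at 6.37 CPM [5.62–7.19], against 1.85 CPM [1.41–2.39] in the cluster led by Elf3 and Krt8. The cluster led by Slurp1 and Mt4 stood at 5.70 CPM [3.69–8.42] and that led by Tff1 and Alb at 4.20 CPM [3.35–5.21]. Among type VI chains, there were 1.06 Col6a1 UMIs per Col6a2 UMI in fibroblasts [0.911–1.23], 1.23 in mural cells [1.09–1.40] and 8.87 in cancer cells [5.75–14.3]. Some other pairs had a ratio in cancer cells near or between those of the stromal classes. There were 1.35 Col6a3 UMIs per Col6a1 UMI in cancer cells [1.12–1.62], against 1.18 in fibroblasts and 2.07 in mural cells, and 2.25 Col5a2 UMIs per Col5a1 UMI [1.10–4.88], on 27 and 12 UMIs, against 2.78 and 2.37.

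Col3a1, the single chain of type III collagen, which forms thin fibrils with type I, differed between the stromal classes, in a direction that turned with the clustering. At a Leiden resolution of 0.5, which gives coarser clusters, its log2 ratio of mural cells over fibroblasts was 0.67 [0.55 to 0.79], against −1.17 with the classes used here. With the latter, its level was 3633 CPM [3490–3780] in fibroblasts and 1619 CPM [1524–1718] in mural cells, and fibroblasts held 60.2% of its UMIs against 27.1% in mural cells. Relative to Col1a1, it gave 1.12 UMIs per Col1a1 UMI in fibroblasts and 0.490 in mural cells. In endothelial cells it stood at 43.7 CPM, in cancer cells at 0.401 CPM and in T cells at 0.805 CPM. Type V chains, which regulate the diameter of type I fibrils, followed type I. Col5a1 stood at 393 CPM in fibroblasts and 425 CPM in mural cells, Col5a2 at 1092 and 1008 CPM, and Col5a3 at 462 and 799 CPM. In cancer cells these 3 genes stood at 0.123, 0.278 and 0.298 CPM.

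The minor fibrillar genes had few UMIs. All 26 stromal UMIs of Col11a1, a chain of cartilage-type fibrils, came from fibroblasts at 38.85 CPM [25.4–56.9], with 1 further UMI in cancer cells. At the coarser clustering the same 26 UMIs lay in the mural class. Col27a1, a fibrillar gene known from cartilage, stood at 58.3 CPM [41.4–79.7] in fibroblasts and 68.1 CPM [49.8–90.8] in mural cells. It stood at 71.8 CPM [38.2–123] in tumour dendritic cells, on 13 UMIs in a class of 46 cells. Col2a1, the cartilage fibril chain, had 14 UMIs in tumour cancer cells and 0 in the other named tumour classes, and Col11a2 had 35 UMIs in kept tumour cells, 21 of them in cancer cells.

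The 3 fibroblast clusters differed widely in how much collagen they carried. The cluster led by Apod, Dpt and Clec3b (45 cells, median 2840 UMIs) stood at 17980 CPM in all collagen genes. The cluster led by Mfap5 and Timp1 (38 cells, median 5913) stood at 31930 CPM, and the cluster led by Acta2, Vgll3 and Tagln (21 cells, median 10219) at 6454 CPM. Collagens were left out of the clustering, yet Col3a1, Col1a2, Col8a1 and Col1a1 were among the leading genes of the middle cluster, so its level describes the cluster and is no independent finding.

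Each of these clusters had its own mix. In the Mfap5 and Timp1 cluster Col1a2 stood at 8391 CPM, Col3a1 at 6351 CPM, Col1a1 at 5694 CPM and Col8a1 at 1440 CPM, the highest levels of these genes among the 3 clusters, and all 26 fibroblast UMIs of Col11a1 lay there. In the Apod and Dpt cluster Col1a2 stood at 5456 CPM, Col3a1 at 4738 CPM and Col14a1, a FACIT of mature fibrils, at 565 CPM, which was the highest Col14a1 level of the 3. The Acta2 and Tagln cluster had Col4a1 at 1253 CPM ahead of Col1a1 at 861 CPM. Its summed fibroblast markers stood at 845 CPM, against 12250 CPM in the Apod and Dpt cluster and 3445 CPM in the Mfap5 and Timp1 cluster, so the name fibroblast is weakest for these 21 cells. Summed myofibroblast markers (6 contractile and matrix genes such as Acta2 and Tagln) stood at 532, 4099 and 8728 CPM in the Apod and Dpt, the Mfap5 and Timp1, and the Acta2 and Tagln cluster. In the 1 cluster that made up the mural class they stood at 6735 CPM, and summed markers of inflammatory fibroblasts at 3979 CPM, both above its mural markers at 3372 CPM, of which Rgs5 gave 2304 CPM. Summed markers of adventitial fibroblasts, the cells around larger vessels, stood at 4459, 418 and 70.5 CPM.

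A further 37 cells led by Higd1b and Cox4i2 stayed unnamed under the naming rule. They had a median of 15882 UMIs, stood at 6619 CPM of collagen, and held 4317 of the 4340 collagen UMIs in unnamed tumour cells. Unnamed cells together held 7.87% of the collagen UMIs of kept tumour cells.

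Mural cells and fibroblasts were then compared gene by gene, to see which chains set the 2 stromal classes apart. Of 21 genes with at least 20 UMIs in the 2 classes together, 5 were higher in mural cells by more than 1 on the log2 scale (23.8%, against 5.64% of 7017 genes) and 3 were lower (14.3%, against 8.68%), and 13 lay within that limit. At a coarser clustering (Leiden resolution 0.5) these counts were 14 higher, 0 lower and 7 within the limit, and with doublets kept 5, 2 and 14. The median log2 ratio was 0.32, against −0.09 over all genes. Higher were Col18a1 at 2.46 [2.08 to 2.88], Col6a3 at 1.42 [1.26 to 1.59], Col15a1 at 1.11 [0.88 to 1.35] and Col4a1 at 1.06 [0.93 to 1.20], which are basement membrane, perivascular and microfibril chains. Col10a1, known as the collagen of hypertrophic cartilage, had 28 UMIs in mural cells and 0 in fibroblasts, at least 9.24-fold higher. Lower were Col3a1 at −1.17 [−1.27 to −1.06], Col14a1 at −1.52 [−1.95 to −1.11] and Col11a1, with 0 UMIs against 26, at least 8.75-fold lower. Type I stayed within the limit, with Col1a1 at 0.02 [−0.07 to 0.11] and Col1a2 at −0.32 [−0.39 to −0.24].

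Many of these calls changed with the clustering. At the coarser clustering the mural class grew from 109 to 150 cells and the fibroblast class shrank from 104 to 65, and the ratio of Col3a1 became 0.67, that of Col8a1 1.08 in place of −0.68, that of Col1a1 1.25 and that of Col1a2 1.06. The 26 Col11a1 UMIs then lay in the mural class. None of the 3 lower genes was lower by more than 1 there, since Col14a1 stood at −0.27 [−0.65 to 0.12]. Of the 5 higher genes, Col18a1 at 1.69, Col6a3 at 2.41, Col15a1 at 4.0 and Col10a1 at 4.60 stayed beyond the limit and Col4a1 at 0.70 came within it. Col6a1 at 2.02, Col6a2 at 2.104, Col5a3 at 1.79 and Col27a1 at 2.15 were among the genes that passed it only at this clustering. In all, 6 of the 21 ratios changed sign, and the median ratio was 1.24.

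Type VI, XII and XV chains were high in both stromal classes. Col6a3 stood at 640 CPM in fibroblasts, 1716 CPM in mural cells and 135 CPM in endothelial cells, and was among the leading genes of the mural cluster. Col6a1 stood at 544 and 830 CPM and Col6a2 at 514 and 673 CPM in fibroblasts and mural cells, and the 3 genes lay at 0.237 to 2.83 CPM in cancer cells. Col12a1, a FACIT of tissues under tension, stood at 480 CPM in fibroblasts and 598 CPM in mural cells but at 20.2 CPM in endothelial cells. Col16a1, another FACIT, stood at 109 and 97.7 CPM. Fibroblasts and mural cells together held 82.5% of fibrillar, 71.0% of beaded filament and 49.8% of multiplexin UMIs of kept tumour cells.

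Endothelial cells of the tumour had a different make-up, in which the basement membrane genes dominated. Type IV genes gave 73.8% of their collagen UMIs, against 15.1% in mural cells and 7.88% in fibroblasts, and multiplexins gave 14.3%. Fibrillar genes gave 6.03%, against 72.1% in fibroblasts and 55.7% in mural cells. Col4a1, a chain of the type IV molecule found in nearly all basement membranes, stood at 3446 CPM [3238–3664] in endothelial cells, 2067 CPM [1960–2178] in mural cells, 991 CPM [917–1069] in fibroblasts, 75.5 CPM [73.8–77.3] in cancer cells and 7.24 CPM [3.31–13.8] in T cells. None of these intervals overlapped. Its partner Col4a2 followed the same order, at 1903 CPM [1749–2066], 943 CPM [871–1019], 498 CPM [446–554], 33.4 CPM [32.3–34.6] and 3.22 CPM [0.877–8.24]. After thinning, Col4a1 was found in 90.4% of endothelial cells, 7.03% of cancer cells and 0.507% of T cells, at median depths of 5716, 14062 and 1572 UMIs.

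The multiplexins carry C-terminal fragments such as endostatin, which is cut from type XVIII. Col18a1 stood at 525 CPM [445–614] in endothelial cells, 522 CPM [469–580] in mural cells, 94.1 CPM [72.3–120] in fibroblasts, 5.87 CPM [5.402–6.376] in cancer cells and 1.61 CPM in T cells. Col15a1 stood at 508 CPM [430–595] in endothelial cells, 724 CPM [661–791] in mural cells, 335 CPM [292–382] in fibroblasts and 0.165 CPM in cancer cells. Endothelial and mural cells thus had overlapping Col18a1 intervals, while for Col15a1 the mural level lay above.

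Set against mural cells, 15 of 19 genes were lower in endothelial cells by more than 1 on the log2 scale (78.9%, against 13.6% of 6089 genes) and 1 was higher (5.26%, against 14.8%). The median was −3.66 over the 19 genes, or −2.81 with genes at 0 UMIs set to 3 counts, and 0.08 over all genes. Higher was Col4a2 at 1.014 [0.85 to 1.18], with Col4a1 at 0.74 [0.62 to 0.86], Col18a1 at 0.01 [−0.28 to 0.28] and Col15a1 at −0.51 [−0.78 to −0.24] within the limit. Col1a1, Col1a2 and Col3a1 were far lower, with Col1a1 at −5.39 [−6.08 to −4.83], Col1a2 at −5.19 [−5.77 to −4.70] and Col3a1 at −5.16 [−6.13 to −4.43]. Of 24 genes with a UMI in tumour endothelial or T cells, 17 (70.8%), these 3 among them, had an interval of the log2 ratio to T cells above 0, against 17.6% of 13087 genes, with Col16a1 among them on 3 UMIs against 1. Mural markers moved with this, since all 7 were detected in the endothelial class at a summed 1271 CPM, against 3372 CPM in mural cells, with Rgs5 at 965 and 2304 CPM. The part of such RNA in the fibrillar counts of endothelial cells was not tested.

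Cancer cells carried a narrow set of chains. Their 8 epithelial markers summed to 4365 CPM, against 208 CPM in fibroblasts, and of the 10 fibroblast markers Dcn stood at 1033 CPM in them, of 1037 CPM in all. Col4a1 gave 33.2% of their collagen UMIs, Col8a1 29.6%, Col4a2 14.7% and Col14a1 8.60%, and fibrillar genes gave 3.42%. Col8a1, a short network chain known from the basement membrane of the cornea and from vessel walls, stood at 67.3 CPM [65.7–69.0] in cancer cells and 6.44 CPM [2.78–12.7] in T cells, against 786 CPM [720–856] in fibroblasts, 491 CPM [440–547] in mural cells and 23.5 CPM [9.46–48.5] in endothelial cells. Col14a1 stood at 19.6 CPM [18.7–20.4] in cancer cells, with 0 UMIs in T cells, which allows up to 2.42 CPM there. Because cancer cells were so many, they held 86.6% of the Col8a1 UMIs, 86.4% of Col14a1 and 67.5% of Col4a1 in kept tumour cells, although the level per UMI was higher in fibroblasts for each of these genes.

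Further genes had most of their UMIs in cancer cells. Col7a1, the chain of the anchoring fibrils that tie epithelium to the tissue below, had 629 of its UMIs there (95.5%), at 6.47 CPM [5.975–6.997], where T cells stood at 3.22 CPM [0.877–8.24]. The cartilage FACITs Col9a1 and Col9a3 had 120 and 101 UMIs in cancer cells, at 1.23 and 1.04 CPM, and Col9a1 had 0 in each of the other named tumour classes. Col22a1, a FACIT known from tissue junctions, had 99, Col28a1 31, Col20a1 23, Col4a4 11 and Col6a5 7. Col23a1, a transmembrane collagen, had 10 there and 7 in fibroblasts, which with 10.5 CPM [4.21–21.6] were its highest class, and Col4a5 had 9 in fibroblasts and 0 in cancer cells. Of the 32 genes, 31 had a UMI in tumour cancer cells, and for 5 of these (16.1%, against 20.7% of 16439 genes) the interval of the log2 ratio to T cells lay above 0: Col4a1, Col4a2, Col8a1, Col14a1 and Col18a1, the last on 2 T cell UMIs and with a lower bound of 0.008. In the node this held for 11 of 27 genes (40.7%, against 39.6% of 15579), which were Col4a1, Col4a2, Col6a1, Col6a3, Col7a1, Col8a1, Col14a1, Col16a1, Col18a1, Col22a1 and Col28a1. Within T cells the intervals were wide, since the class held 57 collagen UMIs in 578 cells.

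The clusters within the cancer cells did not share 1 collagen pattern. Col18a1 stood at 15.4 CPM [13.8–17.3] in the cluster led by Tff1 and Alb (1203 tumour cells), against 3.90 CPM [3.32–4.55] in the Cyp1a1 and Wnt6 cluster (1815 cells) and 2.52 CPM [2.00–3.14] in the Elf3 and Krt8 cluster (2683 cells). Col7a1 followed, at 13.4 CPM [11.8–15.1], 5.67 CPM [4.96–6.44] and 3.19 CPM [2.60–3.88]. Col14a1 had another order, at 25.1 CPM [22.9–27.4], 9.15 CPM [8.25–10.1] and 29.2 CPM [27.4–31.2]. Col8a1 stood at 79.1, 74.2 and 55.7 CPM in the same order. These were the 3 largest tumour clusters of the class. In a smaller one, led by Slurp1 and Mt4 (258 cells), Col8a1 was at 38.1 CPM [32.5–44.3], Col14a1 at 23.1 CPM, Col7a1 at 6.84 CPM and Col18a1 at 5.48 CPM.

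Immune cells had low counts throughout. Macrophages of the tumour stood at 57.3 CPM [50.02–65.28] in all collagen genes, neutrophils at 123 CPM [90.2–164] on 46 UMIs, dendritic cells at 88.3 CPM [50.5–143] on 16 UMIs and T cells at 45.9 CPM [34.8–59.4]. The 28 NK cells had 0 collagen UMIs, which allows up to 38.2 CPM. The interval of the log2 ratio of macrophages to T cells lay above 0 for 0 of 24 genes in the tumour (against 15.5% of 13854 genes) and 0 of 20 in the node (against 14.5% of 14347). In dendritic cells it lay above 0 for 1 of 18 genes in the tumour (5.56%, against 9.36%) and 1 of 22 in the node (4.55%, against 23.7%), which was Col27a1 in both, with 71.8 CPM in the tumour on 13 UMIs and 23.03 CPM [16.4–31.5] in the node on 39 UMIs, against 1.61 CPM [0.195–5.82] and 0.315 CPM [0.0858–0.807] in T cells. Col27a1 stood at 2.36 CPM [1.496–3.54] in node B cells. In the node Col11a2 gave 41 UMIs in T cells at 3.23 CPM [2.32–4.38] and 18 in B cells at 1.85 CPM [1.09–2.92], above its 0.393 CPM [0.170–0.774] in node cancer cells.

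Stromal cells were almost missing from the lymph node library, so stromal collagen of the node could not be described by class. The node held 2 kept fibroblasts and 2 mural cells. The fibroblasts carried 140 collagen UMIs and the mural cells 63, and the fibroblasts held 86 of the 106 Col3a1 UMIs of kept node cells, with 17 each of Col1a1 and Col1a2. In all kept node cells the collagen level was 126 CPM [123–129], against 521 CPM [516–525] in the tumour. Over all deposited cells the levels were closer, at 199.9 and 448.6 CPM, since cells over 6000 detected genes held most of the node's collagen UMIs. Cancer cells held 75.2% [74.1–76.2] of the node's collagen UMIs and endothelial cells 15.8% [14.9–16.7]. With no upper limit on detected genes these shares were 69.2% and 28.3%. By type, cancer cells held 66.3% of type IV UMIs of the node, 92.8% of FACIT and 95% of multiplexin UMIs, and endothelial cells 30.4% of type IV.

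Endothelial cells of the 2 tissues were compared next. The classes were different clusters: the 44 tumour cells formed a cluster led by Igfbp3, Cdh5 and Fabp4, and 189 of the 191 node cells a cluster led by Glycam1 and Fut7. Glycam1, Chst4 and Fut7, genes of high endothelium, stood at 1825, 497 and 559 CPM in node cells and at 0 in tumour cells. The 10 general endothelial markers summed to 1202 CPM in the node and 6919 CPM in the tumour, with Cdh5 at 158 and 1368 CPM, Pecam1 at 142 and 1190 CPM and Cldn5 at 9.14 and 652 CPM. Median depth was 17158 UMIs in node and 5716 in tumour cells. Whether sorted blood vessel cells, which the study also sequenced, were added to the node library is not stated in the labels.

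Node endothelial cells carried 262 CPM [246–278] of collagen, against 7245 CPM in the tumour. Of 13 genes with at least 20 UMIs in both tissues together, 12 were lower in the node by more than 1 on the log2 scale (92.3%, against 26.8% of 9259 genes). Col7a1 was counted as higher (7.69%, against 22.9%), on 43 UMIs against 0, which is at least 1.11-fold and lies within the limit at that bound. The median log2 ratio was −7.34, or −6.91 with genes at 0 UMIs set to 3 counts, against −0.08 over all genes. Col4a1 stood at 126 CPM [115–138] in node and 3446 CPM in tumour cells, a log2 ratio of −4.77 [−4.93 to −4.62], and Col4a2 at 84.1 CPM [75.2–93.8] and 1903 CPM, a ratio of −4.50 [−4.70 to −4.30]. Type IV remained the largest type in both, with 81.7% of collagen UMIs in the node and 73.8% in the tumour.

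The multiplexins showed larger differences than type IV. Col18a1 had 6 UMIs in node and 156 in tumour endothelial cells, a log2 ratio of −8.28 [−9.86 to −7.23]. Col15a1 had 0 and 151, at least 648-fold lower in the node. Microfibril and fibrillar chains were lower too, with Col6a3 at least 172-fold, Col5a3 at least 167-fold, Col6a2 at least 120-fold and Col1a1 at least 98.7-fold lower on 0 node UMIs. Col1a2 had 2 against 31 UMIs, at −7.34 [−10.75 to −5.67], and Col6a1 3 against 36, at −7.07 [−9.61 to −5.61]. The mural markers that the tumour class held had 5 of 7 at 0 in node endothelial cells, at a summed 1.05 CPM against 1271 CPM, and their part in these ratios was not tested.

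A few genes were relatively kept in node endothelial cells. Col5a1 stood at 13.8 CPM [10.4–18.1] on 53 UMIs, with a log2 ratio of −1.19 [−2.16 to 0.08] that became 0.41 when single-cell CPM were averaged, and Col8a1 at 9.67 CPM [6.81–13.3] on 37 UMIs, with a ratio of −1.36 [−2.47 to 0.13]. The type V partners of Col5a1 were not seen there, with 0 UMIs each of Col5a2 and Col5a3, where tumour fibroblasts gave 2.78 Col5a2 UMIs per Col5a1 UMI [2.41–3.21] and the node count allows up to 0.0721. Col4a5, an X-linked type IV chain, had 14 UMIs at 3.66 CPM [2.00–6.14] in node endothelial cells and 0 in the 44 tumour cells, where up to 10.1 CPM is allowed. Of 28 genes with a UMI in node endothelial or T cells, 10 (35.7%, against 38.6% of 15139 genes) had an interval of the log2 ratio to T cells above 0: Col2a1, Col4a1, Col4a2, Col4a5, Col5a1, Col7a1, Col8a1, Col9a3, Col11a1 and Col18a1. Among these, Col2a1 and Col11a1 rested on 4 UMIs each against 0 in T cells, Col18a1 on 6 against 3 and Col9a3 on 11 against 9. Col4a1 was found in 9.41% of thinned node endothelial cells and 0.140% of node T cells, at median depths of 17158 and 2990 UMIs.

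Cancer cells were the class best measured in both tissues, and their summed collagen level was close, at 234 CPM [227–241] in the node and 227 CPM [224–230] in the tumour. They came from different clusters, since 83.1% of the 611 node cells lay in the cluster led by Tff2 and Krt19, which held 2 tumour cells. Of 23 genes with at least 20 UMIs, 4 were higher in the node by more than 1 on the log2 scale (17.4%, against 9.13% of 12552 genes), 9 were lower (39.1%, against 10.3%) and 10 lay within. The median was −0.49, against −0.15 over all genes, and after the latter was subtracted 7 were higher and 7 lower. With genes at 0 node UMIs set to 3 counts, 7 were lower. With each library clustered on its own, the balance turned, with 6 of 25 genes higher and 3 lower. In that setting no fibroblast or mural class was formed in the node, and its cancer class held 617 cells.

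Of the 3 chains with most UMIs in tumour cancer cells, Col8a1 and Col4a2 were nearly level and Col4a1 was lower in the node. Col8a1 stood at 66.8 CPM [63.3–70.4] in node and 67.3 CPM [65.7–69.0] in tumour cancer cells, which gives −0.01 as log2 ratio [−0.10 to 0.07], and Col4a2 at 33.6 and 33.4 CPM, a ratio of 0.01 [−0.11 to 0.13]. Col4a1 stood at 53.8 CPM [50.7–57.1] and 75.5 CPM, a ratio of −0.49 [−0.58 to −0.40] that stayed within the limit. After thinning, Col8a1 was found in 6.42% of node and 6.32% of tumour cancer cells, against 0.118% and 0.261% of T cells, at median depths of 35019, 14062, 2990 and 1572 UMIs.

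Higher in node cancer cells were a multiplexin, the anchoring fibril chain, a beaded filament chain and Col28a1. Col18a1 stood at 14.8 CPM [13.2–16.6] against 5.87 CPM, a log2 ratio of 1.34 [1.13 to 1.54]. Col7a1 stood at 14.3 CPM [12.7–16.1] against 6.47 CPM, a ratio of 1.15 [0.94 to 1.35]. Col6a1 stood at 5.50 CPM [4.53–6.62] against 2.099 CPM, a ratio of 1.39 [1.04 to 1.73], and Col28a1 had 21 UMIs against 31, a ratio of 1.70 [0.82 to 2.54]. Just inside the limit, Col14a1 stood at 36.6 CPM [34.0–39.4] against 19.6 CPM, a ratio of 0.91 [0.78 to 1.03], and Col16a1 at 2.36 against 1.44 CPM, a ratio of 0.72 [0.21 to 1.19].

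Apart from Col9a3, the lower genes were chains whose tumour UMIs were mostly stromal. Col1a1 had 2 UMIs in node and 430 in tumour cancer cells, and its log2 ratio was −5.17 [−8.54 to −3.63]. Col1a2 had 0 against 105, at least 7.34-fold lower, and Col3a1 0 against 39, at least 2.72-fold lower. Col5a2 with 0 against 27 was at least 1.89-fold and Col6a2 with 0 against 23 at least 1.61-fold lower. Col6a3 had 14 against 275, a ratio of −1.99 [−2.93 to −1.27], Col5a3 1 against 29, at −2.04 [−7.96 to −0.01], Col12a1 4 against 46, at −1.12 [−3.21 to 0.18], and Col9a3 10 against 101, at −1.02 [−2.19 to −0.14]. For Col1a1, Col1a2, Col3a1, Col5a2, Col5a3, Col6a2, Col6a3 and Col12a1 the interval of the ratio of tumour cancer cells to T cells did not lie above 0, and the share of free stromal RNA in them was not tested. Some of these directions depended on 1 choice: with each library clustered on its own, Col1a1 stood at −2.12, Col1a2 at 0.41, Col3a1 at 3.64, Col5a3 at 0.65 and Col6a2 at 0.32. The node formed no fibroblast or mural class in that setting. With the classes used elsewhere here, its 4 stromal cells held 102 Col3a1 UMIs, and their part in these ratios was not tested.

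**Figure D4:**
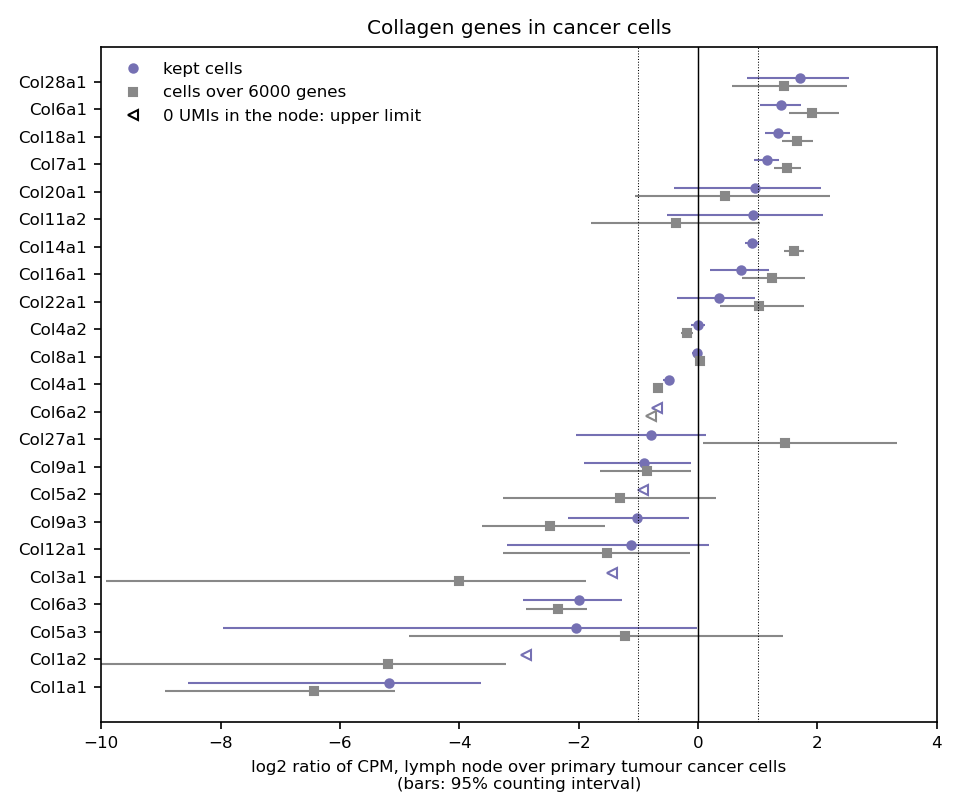
Log2 ratio of node over tumour cancer cells for collagen genes with at least 20 UMIs, with 95% intervals, for kept cells (circles) and for cells over 6000 detected genes (squares); open triangles are upper limits for genes with 0 node UMIs, from 3 counts. Col18a1 (1.34), Col7a1 (1.15) and Col6a1 (1.39) lie above 1 and Col8a1 (−0.01) at 0, while Col1a1 lies at −5.17.

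The node differences of Col7a1 and Col18a1 moved with the cluster. In the Tff1 and Alb cluster, which held 65 node and 1203 tumour cells, Col7a1 stood at 5.27 CPM [2.28–10.4] in the node and 13.4 CPM in the tumour, a log2 ratio of −1.26 [−2.57 to −0.34], and Col18a1 at 11.9 CPM [7.03–18.7] and 15.4 CPM, a ratio of −0.34 [−1.15 to 0.30]. Col6a1 was at −0.26 [−1.85 to 0.80] there, Col4a1 at −0.99 [−1.40 to −0.63] and Col14a1 at 0.44 [−0.02 to 0.84]. Col4a2 at −0.76 [−1.35 to −0.27] and Col8a1 at −0.35 [−0.67 to −0.05], which were level over all cancer cells, were lower in the node within this cluster. The Tff2 and Krt19 cluster of the node stood at 15.5 CPM of Col7a1 and 15.4 CPM of Col18a1, near the tumour cells of the Tff1 and Alb cluster. The share of cells in each cluster and the tissue were not separated further.

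Cells over 6000 detected genes, which the study's limits leave out, held 71.9% of all collagen UMIs in the node and 16.5% in the tumour. Among them 721 node and 722 tumour cells could be placed with the cancer cells, at 235.7 and 235.4 CPM of collagen. The same 4 directions were seen there, with Col6a1 at 1.92 [1.52 to 2.36], Col18a1 at 1.66 [1.42 to 1.93], Col7a1 at 1.496 [1.28 to 1.72] and Col28a1 at 1.44 [0.57 to 2.49], and Col14a1 reached 1.61 [1.44 to 1.78]. Col8a1 lay at 0.03 [−0.04 to 0.10], Col4a1 at −0.66 [−0.74 to −0.59] and Col1a1 at −6.43 [−8.94 to −5.08]. Of the endothelial cells over that limit, 200 came from the node, at 355 CPM, and 4 from the tumour, at 8922 CPM, with Col4a1 at 172 and 3069 CPM. In those node cells Col5a1 stood at 15.6 CPM on 241 UMIs and Col4a5 at 4.91 CPM on 76 UMIs, again with 0 UMIs of Col5a2 and Col5a3.

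The chains of type IV, Col4a1 and Col4a2, are secreted together as a trimer and are transcribed away from the shared start shown above. Their UMIs gave ratios close to each other in the classes of the tumour, at 1.99 Col4a1 UMIs per Col4a2 UMI in fibroblasts [1.74–2.28], 2.19 in mural cells [2.00–2.41], 1.81 in endothelial cells [1.63–2.01] and 2.26 in cancer cells [2.17–2.36]. The Col4a1 level itself ranged from 75.5 to 3446 CPM in these classes. The ratio of endothelial cells lay below the interval of cancer cells. In the node the ratio was lower, at 1.497 in endothelial cells [1.30–1.73] and 1.60 in cancer cells [1.46–1.77]. Node and tumour intervals overlapped for endothelial cells and did not for cancer cells. Over all deposited cells it was 2.14 [2.08–2.20] in the tumour and 1.55 [1.49–1.61] in the node.

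The lower node ratio was seen in both classes and outside the kept cells. Among cells over 6000 genes it was 1.51 [1.42–1.61] in node and 2.11 [1.98–2.25] in tumour cancer cells, and 1.56 [1.47–1.66] and 1.83 [1.58–2.12] in endothelial cells. The endothelial intervals overlapped, as in kept cells, and the tumour value came from 4 cells. In the Tff1 and Alb cluster it was 1.97 [1.26–3.14] in the node, on 61 and 31 UMIs, and 2.29 [2.09–2.51] in the tumour, so the intervals overlapped there. Library, digestion and tissue cannot be told apart here, with 1 library of each tissue. Both genes were found in 1596 of 6123 tumour cancer cells, 320 of 611 node cancer cells and 41 of 44 tumour endothelial cells.

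**Figure D5:**
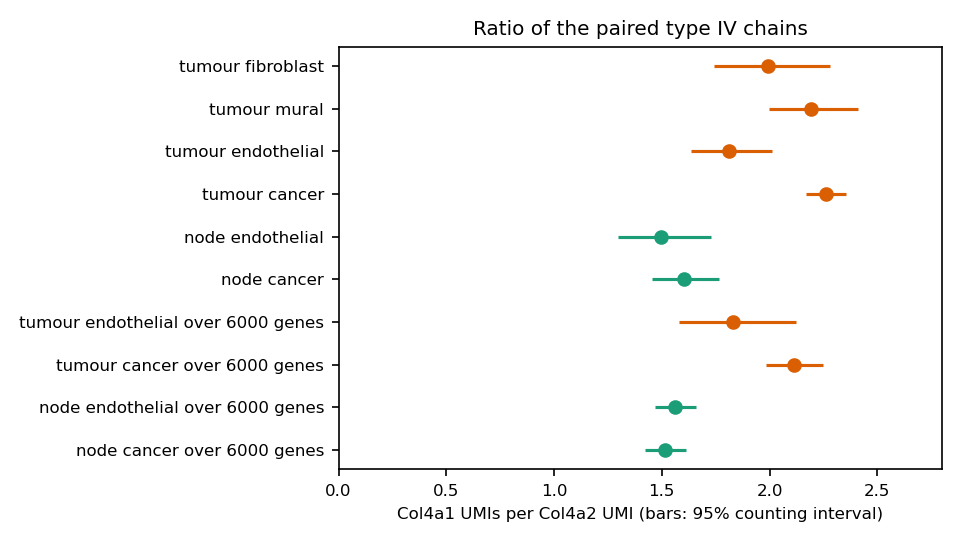
Col4a1 UMIs per Col4a2 UMI with exact 95% intervals (lines), by class and library, for kept cells and cells over 6000 detected genes. Kept cancer cells stand at 2.26 for the primary tumour and 1.60 for the node, and the node values of both classes lie to the left of the tumour values.

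Collagen chains need a set of enzymes and helpers, of which 41 were listed: 15 hydroxylases and glycosyltransferases that modify the chains, 5 chaperone and export genes, 7 that cut the propeptides, 5 that cross-link fibrils and 9 receptors. Of 38 with at least 20 UMIs in the tumour, 15 were highest in fibroblasts (11% of all genes), 14 in mural cells (8.32%), 5 in endothelial cells (13.7%) and 1 in cancer cells (17.8%). Macrophages, neutrophils and NK cells were highest for 1 each, against 49.2% of all genes for the immune classes together. Serpinh1, the chaperone that binds the collagen helix, stood at 1819 CPM in fibroblasts, 1459 CPM in mural cells and 914 CPM in endothelial cells, but at 1.12 CPM in tumour and 0.638 CPM in node cancer cells. Lox, which starts the cross-linking of fibrils, stood at 853 CPM in fibroblasts, 342 CPM in mural cells and 0.144 CPM in tumour cancer cells. Adamts2, which removes the amino-terminal propeptide, stood at 190, 540 and 0.0926 CPM in the same classes.

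Cancer cells nevertheless had other members of the list. Loxl2, a cross-linking enzyme that acts on type IV collagen, stood at 127 CPM in tumour and 154 CPM in node cancer cells, against 365 CPM in fibroblasts and 716 CPM in mural cells. Loxl4 was the 1 gene highest in cancer cells, at 31.5 CPM in the tumour and 36.2 CPM in the node. Pcolce, an enhancer of propeptide removal, stood at 227 and 210 CPM, near the 205 CPM of fibroblasts and 240 CPM of mural cells. P4ha1, a prolyl 4-hydroxylase subunit, stood at 81.8 and 100 CPM. The collagen receptors Ddr2 and Ddr1 stood at 64.4 and 30.6 CPM in tumour cancer cells, and 52.8 and 21.01 CPM in the node.

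Between the tissues, cancer cells had 30 of the 41 genes with enough UMIs, of which 3 (10%, against 9.13% of all genes) were higher in the node by more than 1 on the log2 scale and 5 lower (16.7%, against 10.3%), with a median of −0.29. Higher were Itga2, the alpha subunit of a collagen-binding integrin, at 1.02 on 602 and 1414 UMIs, Itga11 at 3.598 on 16 and 6, and P3h4 at 2.59 on 19 and 15. Lower were Bmp1, a procollagen C-proteinase, at −1.25 on 99 and 1131 UMIs, Fkbp14 at −1.33 on 39 and 472, Adamts14 at −1.98 on 8 and 160, P3h3 at −3.77 [−9.66 to −1.83] on 1 and 97, and Itga1 at −1.45 [−4.85 to 0.23] on 2 and 32. Endothelial cells had 18 of 24 lower in the node (75%, against 26.8% of all genes) and 1 higher (4.17%, against 22.9%), with a median of −1.60. The 1 higher gene was Pcolce2, an enhancer of procollagen cutting, with 42 UMIs against 0, at least 1.09-fold higher, a bound that lies within the limit. Serpinh1 stood at 291 and 914 CPM there, a log2 ratio of −1.65, while Ppib, a prolyl isomerase used by many secreted proteins, was level at −0.01. Mural cells over fibroblasts had 4 of 32 higher (12.5%, against 5.64%) and 2 lower (6.25%, against 8.68%), with a median of 0.01, and Adamts2 at 1.51 and Lox at −1.32. In endothelial over mural cells 1 of 31 was higher (3.23%, against 14.8%) and 16 were lower (51.6%, against 13.6%), with a median of −1.26.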

How the data were processed

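Droplet-based 3′ single-cell RNA sequencing was available for 1 primary tumour library and 1 lymph node library, each pooled from 6 mice. The authors deposited a matrix of raw UMI counts per gene and cell for each library. The submitters' processing notes name Cell Ranger 2.1.1 and GRCm38, whereas the matrix header names Cell Ranger 5.0.0. Limits on cells followed the study's methods: over 200 detected genes, no more than 6000, and mitochondrial UMIs not above 5%. Doublets were taken out with Scrublet as supplied with scanpy 1.11.5 (391 tumour cells at its automatic threshold); in the node that threshold marked 0 cells, so the 616 cells whose score exceeded its 94th percentile were left out, for an assumed doublet rate of 6%.

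Counts were scaled to 10000 UMIs per cell and log-transformed, and 2000 variable genes per library seen in at least 50 cells were taken, leaving out collagen and pathway genes. Cell cycle scores were regressed out, and 30 principal components, 15 neighbours and Leiden clustering at resolution 1.0 (seed 1) were used for both libraries together. Clusters with contested names were clustered again at 0.5. The class with the highest mean log2 excess of its markers over the 25th percentile of clusters (10 CPM added) set a cluster's lineage. It needed at least 3 markers raised by more than 1. Within a lineage, such as fibroblasts and mural cells, the class with most leading-gene markers took the name, and the excess broke ties. Clusters contested by leading genes or markers of another class stayed unnamed, as did small or shallow clusters without leading markers. Leading genes were the 10 with the largest fold among genes in at least 25% of cells. This scoring rule was set after seeing the data.

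UMIs were summed by class. Levels are given for classes of at least 20 cells, except for the 4 tumour endothelial cells over 6000 detected genes. Log2 ratios used genes with at least 20 UMIs in the 2 classes together and 0.5 counts added, and a ratio beyond 1 was counted as higher or lower. For a count of 0, limits were taken from 3 counts per class. Intervals are exact 95% Poisson or binomial intervals. In simulated counts, 95.4% of intervals for a ratio held the true value. For shares of cells, each cell was thinned to 1000 UMIs and shallower cells were left out (82 tumour cancer cells, 128 tumour T cells). With 1 library per tissue no test was run. The study's doublet caller, batch integration and copy number calls were not used, so classes may differ from the study's.

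Genes named in the text are the collagen genes of the rule and 41 genes of collagen modification, export, cutting, cross-linking and binding, beside marker and cluster-leading genes; full values were given for genes with at least 200 UMIs in a class, and other genes are mostly given by counts. The members, lists and comparisons were chosen with earlier results of these data known. Gene positions and exons came from the reference annotation on GRCm38 and upstream sequence from RefSeq on GRCm38.p6. Python 3.11.15, numpy 2.4.6, pandas 2.3.3, scipy 1.17.1, anndata 0.12.19, igraph 0.11.9 and matplotlib 3.10.9 were used.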

Additional observations from a re-analysis of the deposited data

How the results depend on the processing

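The share of primary tumour collagen UMIs in fibroblasts (23.1%) was 52.1% with a mitochondrial limit of 10%, 46.2% with no upper limit on detected genes, 20.5% with doublets kept, 7.80% at Leiden resolution 0.5, 55.2% with each library clustered on its own, 34.5% as a mean of single-cell CPM, 22.1% without the cell with most UMIs and 47.5% with fibroblasts and mural cells as 1 class, an alternative chosen after seeing the data. In the same order, without the last, Col1a1 in fibroblasts (3258 CPM) was 2786, 2814, 3037, 1661, 2710, 3646 and 3099 CPM. With the mitochondrial limit of 10%, with no upper limit on genes and with each library on its own, no mural class was formed, which places those tumour cells among the fibroblasts. Col4a1 in tumour endothelial cells (3446 CPM) was 2661 CPM with the mitochondrial limit of 10%, 2844 CPM with no upper limit and 2621 CPM with doublets kept, and in node endothelial cells (126 CPM) it was 162 CPM with no upper limit and 110.5 CPM as a mean of single-cell CPM. Summed collagen in cancer cells was 232.7 CPM in the tumour with the mitochondrial limit of 10% and 245 CPM in the node with each library on its own. The 13 genes beyond 1 in cancer cells became 7 of 14 with a minimum of 100 UMIs, since fewer genes were left, and 9 to 15 under the other settings; with each library on its own 6 were higher and 3 lower. With each library on its own, which left the node without a fibroblast or mural class, cancer cell ratios reversed for Col1a2 (0.41), Col3a1 (3.64), Col5a3 (0.65) and Col6a2 (0.32). The endothelial ratio of Col5a1 reversed to 0.41 as a mean of single-cell CPM. The causes of these reversals were not tested. Of the other node over tumour values of single genes, 155 in cancer cells stayed within their intervals and 2 moved, against 77 and 13 in endothelial cells. Those of Col4a2 and Col8a1 in cancer cells, near 0, changed sign under 4 and 2 settings, with Col8a1 at 0.07 and Col4a2 at −0.03 with no upper limit on genes. Of the 21 mural over fibroblast ratios, 6 changed sign at Leiden resolution 0.5: Col1a2 (1.06), Col3a1 (0.67), Col5a2 (0.69), Col8a1 (1.08), Col11a1 (4.49) and Col16a1 (0.70). With doublets kept 2 did, Col1a2 (0.01) and Col5a2 (0.02). Under the settings of the first sentence Col4a1 UMIs per Col4a2 UMI stayed within the interval in each class and library where the class was formed. No paired analysis was possible because each tissue had 1 library.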
